A study of Mus musculus with 8 samples.

Results

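Axonemal genes of motile cilia were examined in ovarian tumours of mice with and without Nedd9. The group was chosen by name and did not use any measured value. It took 30 listed cilia genes and every array gene named as an axonemal dynein heavy chain (Dnah, Dnahc in older array names), a dynein intermediate chain (Dnai, Dnaic), a tektin (Tekt) or a radial spoke head gene (Rsph). The array held 57 such genes among 31697 genes with a value on every array, and 56 of the 57 passed the filter on low signals, among 25537 genes tested. The listed gene Cdhr3 had no probe under that name and was not counted. Of the 56 genes, 45 were above background on at least 3 of 4 arrays in both genotypes. The other 11 (Ccdc113, Dnah5, Dnah12, Dnahc3, Dydc1, Fam183b, Rsph10b2, Spag16, Spag17, Spata17 and Tekt5) passed through the Nedd9-null arrays alone, and none passed through the Nedd9-WT arrays alone. Passing in this way favours genes that are higher in Nedd9-null tumours, so counts are given below without the filter as well.

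The series profiled spontaneous ovarian tumours of 8 female mice on Agilent arrays in 1 colour, 1 mouse per array, to compare tumours with and without NEDD9, a scaffold protein of focal adhesion signalling. All mice carried the TgMISIIR-TAg transgene on a C57BL/6J background, in which the promoter of Amhr2 (also called MISIIR, a receptor gene of the gonadal somatic lineage) drives the SV40 T antigen. Of the 8, 4 were wild type for Nedd9 (Nedd9-WT) and 4 were Nedd9-null, and no mouse was given a drug. The labels differ on tumour size: 1 places the burden below 2000 mm3 and another has the mass reaching it before the mice were killed, and they give no age at death.

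An axoneme is the microtubule core of a cilium or sperm tail, a ring of doublet microtubules around a central pair. Outer and inner dynein arms on the doublets make them slide and so bend the cilium, radial spokes and the central pair tune that movement, and tektins and similar proteins lie along the doublets. In the female tract these genes are known for the ciliated cells of the oviduct, and many of them are also used in sperm tails. Their transcription is known to depend on FOXJ1, a forkhead factor, and on RFX factors, which bind the X-box.

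Promoters are shown first, since the results concern genes that were high in the same tumours. RefSeq windows (assembly GRCm38.p6, 250 bases before to 50 after a gene's start) were found by symbol for 48 of the 57 genes. An X-box with a spacer of 2 bases between its arms, searched on both strands, lay in the windows of 3 of the 48 genes (6.25%), and in 0.796% of the 27025 genes of the table. A spacer of 1 to 3 bases, a wider form chosen after the promoters had been seen, gave 10 of 48 genes (20.8%) against 1.65% of all genes. The half-site GTTGCC, which is 1 arm of many X-boxes and so overlaps with them, was present for 22 of 48 genes (45.8%) and 14.1% of all genes. The forkhead core TAAACA was present for 14 of 48 (29.2%) and 15.1%. Among 13 genes of cytoplasmic dynein and light chain paralogues, the X-box was matched in 1 gene (7.69%) with either spacer, the half-site in 5 (38.5%) and the forkhead core in 4 (30.8%), so the last 2 shares were close to those of the axonemal genes.

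**Figure D1:**
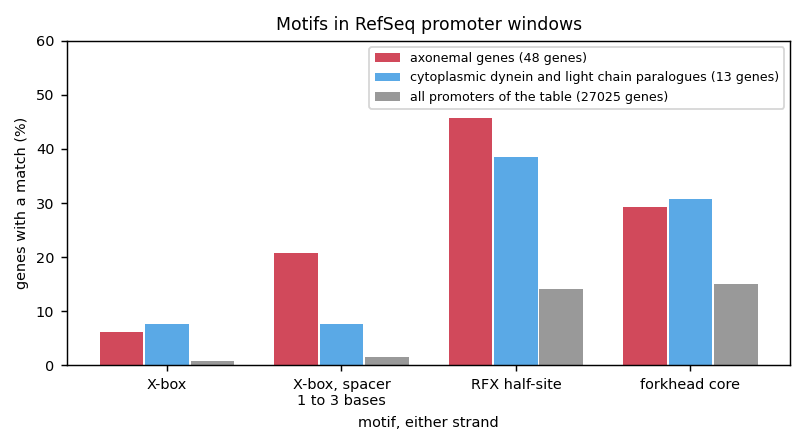
Bars give the percentage of genes with at least 1 match to each motif, on either strand, in RefSeq promoter windows of 300 bases, for 48 axonemal genes, 13 genes of cytoplasmic dynein and light chain paralogues, and all 27025 genes of the table. The wider X-box was found for 20.8% of axonemal genes and 1.65% of all genes, while the half-site and the forkhead core were about as frequent in the cytoplasmic dynein list as in the axonemal genes.

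The following lines give the 150 bases before the start of 8 genes whose stretch holds a match to the wider X-box, each read 5′ to 3′ on the gene's own strand. Capitals mark matches to the wider X-box, the half-site or the forkhead core on either strand. The genes are Dydc1 (chr14:41072761-41072910, plus strand), Dynlrb2 (chr8:116504865-116505014, plus), Dnaic1 (chr4:41569644-41569793, plus), Dnaic2 (chr11:114727269-114727418, plus), Hydin (chr8:110266827-110266976, plus), Kif9 (chr9:110476844-110476993, plus, the second of its start sites), Spag16 (chr1:69826820-69826969, plus) and Tekt2 (chr4:126325689-126325838, minus, 1 of 3 start sites).
Dydc1: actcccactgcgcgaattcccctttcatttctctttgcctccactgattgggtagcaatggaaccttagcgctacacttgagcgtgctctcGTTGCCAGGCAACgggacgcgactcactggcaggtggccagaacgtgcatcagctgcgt
Dynlrb2: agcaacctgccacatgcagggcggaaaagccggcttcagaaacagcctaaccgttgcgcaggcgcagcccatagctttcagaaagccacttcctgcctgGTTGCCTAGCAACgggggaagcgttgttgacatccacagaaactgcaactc
Dnaic1: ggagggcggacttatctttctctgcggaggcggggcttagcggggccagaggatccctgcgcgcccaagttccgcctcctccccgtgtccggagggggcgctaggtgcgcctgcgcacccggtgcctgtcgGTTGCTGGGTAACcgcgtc
Dnaic2: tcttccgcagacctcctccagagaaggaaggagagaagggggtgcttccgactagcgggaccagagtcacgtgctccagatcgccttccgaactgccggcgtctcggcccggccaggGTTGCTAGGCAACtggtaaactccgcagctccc
Hydin: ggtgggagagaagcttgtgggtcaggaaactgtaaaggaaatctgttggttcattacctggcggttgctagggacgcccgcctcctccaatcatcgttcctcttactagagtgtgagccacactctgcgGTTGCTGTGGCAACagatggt
Kif9: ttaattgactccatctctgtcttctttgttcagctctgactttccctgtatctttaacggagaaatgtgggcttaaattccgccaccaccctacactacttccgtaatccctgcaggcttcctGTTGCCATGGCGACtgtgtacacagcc
Spag16: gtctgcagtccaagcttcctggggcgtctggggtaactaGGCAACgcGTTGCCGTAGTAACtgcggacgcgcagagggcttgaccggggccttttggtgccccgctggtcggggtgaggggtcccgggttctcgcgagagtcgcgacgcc
Tekt2: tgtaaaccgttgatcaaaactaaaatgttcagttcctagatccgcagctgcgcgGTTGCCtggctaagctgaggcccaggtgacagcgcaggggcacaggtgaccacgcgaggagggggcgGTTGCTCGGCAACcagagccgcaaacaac
In Dnaic1, Hydin, Kif9 and Tekt2 the match began 19, 21, 27 and 29 bases before the start, in Dnaic2, Dynlrb2 and Dydc1 33, 51 and 59 bases before it, and in Spag16 103 bases before it. A further line gives Fam183b (chr11:58801961-58802110, minus), the member with the largest difference, which had 2 half-sites in this stretch. Dnah17 (chr11:118129220-118129369, minus), the member with the lowest difference among those tested, had none of these motifs in the stretch shown, but its window of 300 bases holds a forkhead core and it is 1 of the 14 genes counted above. Motifs were not compared with differences over the group. In this stretch Ccdc113 (difference 7.47) had a half-site and a forkhead core, Dnali1 (7.46) had no motif, and Iqcg (1.17) had 2 half-sites.
Fam183b: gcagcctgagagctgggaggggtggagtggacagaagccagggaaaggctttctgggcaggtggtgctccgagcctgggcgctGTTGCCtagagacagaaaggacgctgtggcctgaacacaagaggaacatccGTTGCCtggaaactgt
Dnah17: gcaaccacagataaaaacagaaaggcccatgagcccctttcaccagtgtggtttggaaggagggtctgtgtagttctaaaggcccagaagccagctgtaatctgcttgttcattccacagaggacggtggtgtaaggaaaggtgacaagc
A match is a description of these letters and says nothing of whether a factor binds there.

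A level is the log2 of a probe's signal over the 75th percentile of its array, so a value of 0 is as bright as that percentile, and levels are compared between tumours, not between genes. The 4 values of a genotype are given in the order of replicates 1 to 4, which do not pair the genotypes. A difference is the Nedd9-null mean minus the Nedd9-WT mean with its standard error (SE) in limma, and the threshold was an adjusted p of 0.05 after Benjamini-Hochberg adjustment over all genes tested. The 75th percentile signal was 2418 to 3552, and 73.0% to 84.6% of probes were well above background. Nedd9 itself stood at 1.15, 0.84, 1.30 and 1.85 in Nedd9-WT and -2.01, -3.50, -3.39 and -4.03 in Nedd9-null tumours. Over genes, the correlation of Nedd9-null replicate 1 was 0.938 to 0.973 with arrays of Nedd9-WT tumours and 0.886 to 0.920 with those of its own genotype, so counts are given with and without it. Each genotype was hybridised on 1 slide of its own, so slide and genotype cannot be told apart. In tumour pieces, more ciliated cells and more RNA per cell cannot be told apart either.

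The axonemal genes were higher in the Nedd9-null tumours by a median of 3.91, against 0.03 over all genes tested, and by 3.90 against 0.02 without the filter. Their median difference from the Nedd9-WT mean was 0.86, 4.11, 4.64 and 4.96 in the Nedd9-null tumours and 0.74, -0.47, -0.43 and -0.06 in the Nedd9-WT tumours. Thus Nedd9-null replicates 2 to 4 were high, and Nedd9-null replicate 1 stood next to Nedd9-WT replicate 1. With all 8 tumours, 1 of the 56 genes (Dydc1) rose past the threshold and none fell, where 0.0587% of all genes tested rose and 0.00783% fell. Without the filter it was 1 of 57. Dydc1 is among the genes that passed the filter through the Nedd9-null arrays alone. Its Nedd9-WT signals were 2.65 to 5.40 before scaling, near background, so the spread behind this call is not one of measured expression. At an unadjusted p under 0.05, 51 of 56 were higher (91.1%) and 0 lower, against 13.1% of all genes higher and 10.8% lower, and without the filter 51 of 57 against 11.1%. The genotypes did not overlap in 19 of 56 genes, all higher in Nedd9-null, against 7.17% of all genes higher and 5.58% lower. Without the filter this was 19 of 57 against 6.06%. The difference was above 0 in 55 of 56 genes (all genes 52.2%), above 1 in 49 (11.6%) and above 2 in 44 (5.21%).

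The order of the tumours was shared across the group. Nedd9-null replicate 1 was the lowest of its genotype in 52 of 56 genes (92.9%), against 26.9% of all genes tested. It lay above every Nedd9-WT tumour in 22 genes (39.3%, all genes 33.7%) and below every one in 2 (3.57%, all genes 14.3%). Nedd9-null replicates 2 to 4 lay above the other 5 tumours in 51 genes (91.1%, all genes 13.2%), and replicate 2 was the lowest of these 3 in 50 (89.3%, all genes 32.9%). Among the Nedd9-WT tumours, replicate 1 was the highest in 36 genes (64.3%, all genes 28.8%). Of the 57 genes, 53, 41, 42 and 49 were well above background in the Nedd9-WT tumours and 52, 55, 56 and 57 in the Nedd9-null tumours. The genes share their RNA within a tumour, so their agreement counts as 8 tumours and not as 56 observations.

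**Figure D2:**
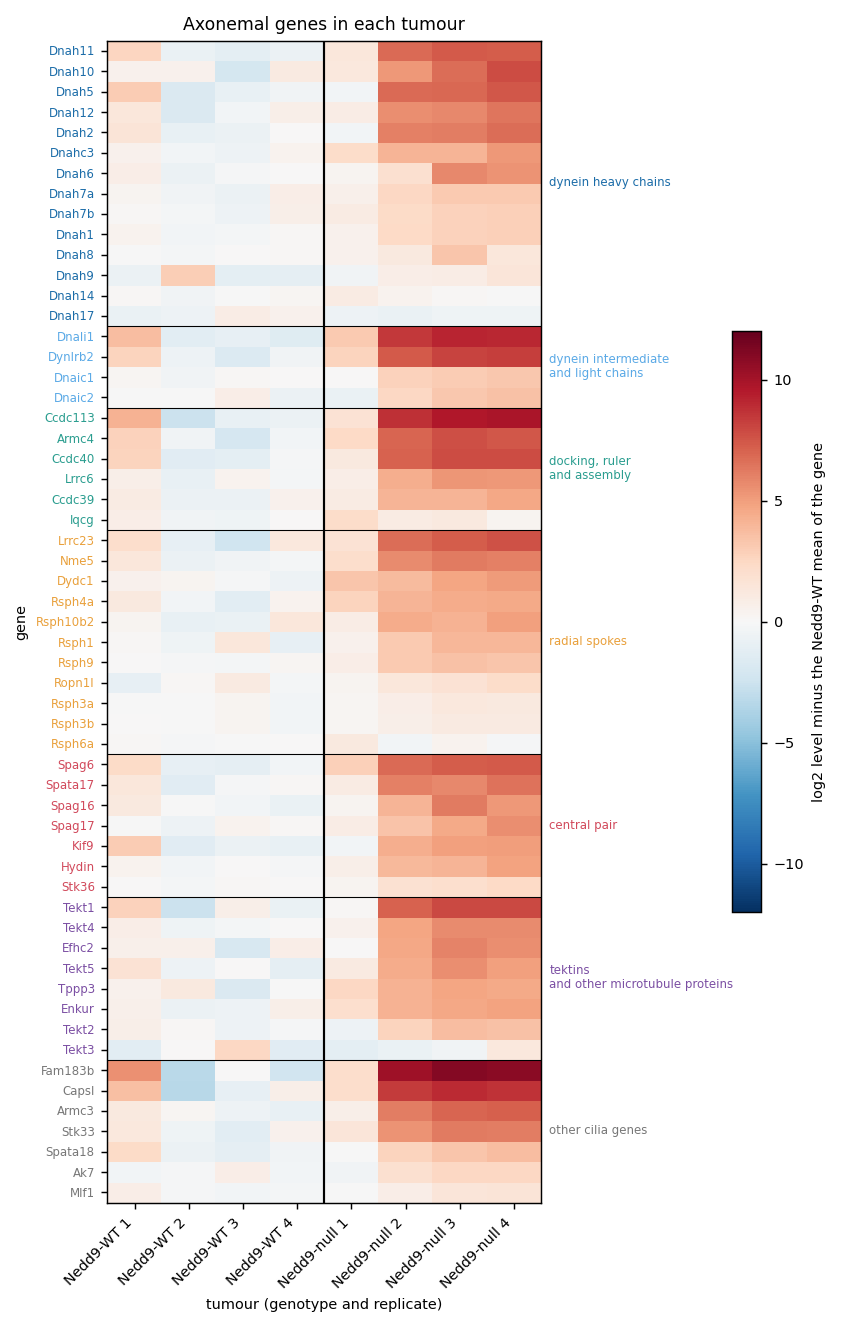
Colour gives the log2 level of each of the 57 axonemal genes (rows, ordered by role and difference) in each of the 8 tumours (columns), relative to the mean of the 4 Nedd9-WT tumours. Nedd9-null replicates 2 to 4 are red in nearly every row, with group medians of 4.11 to 4.96, while Nedd9-null replicate 1 (median 0.86) is close to Nedd9-WT replicate 1 (0.74).

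Nedd9-null replicate 1 was left out as a tumour that earlier results of these same data had shown to stand apart. It was the lowest of its genotype in 52 of the 56 genes, so leaving it out tends to raise the differences of this group. The counts without it, here and by role below, are therefore no separate support. In that fit, 50 of the 56 genes rose past the threshold and none fell, where 10.3% of all genes tested rose and 8.37% fell. Without the filter it was 50 of 57 against 7.8%. The genotypes were then separate in 51 of 56 genes (all genes 16.4%), and the median difference was 4.53 (all genes -0.07). The 6 genes that did not pass were Dnah9, Dnah14, Dnah17, Iqcg, Ropn1l and Rsph6a. Ropn1l, a gene of the radial spoke and the sperm fibrous sheath, missed by little, with a difference of 1.73 and an adjusted p of 0.0501.

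**Figure D3:**
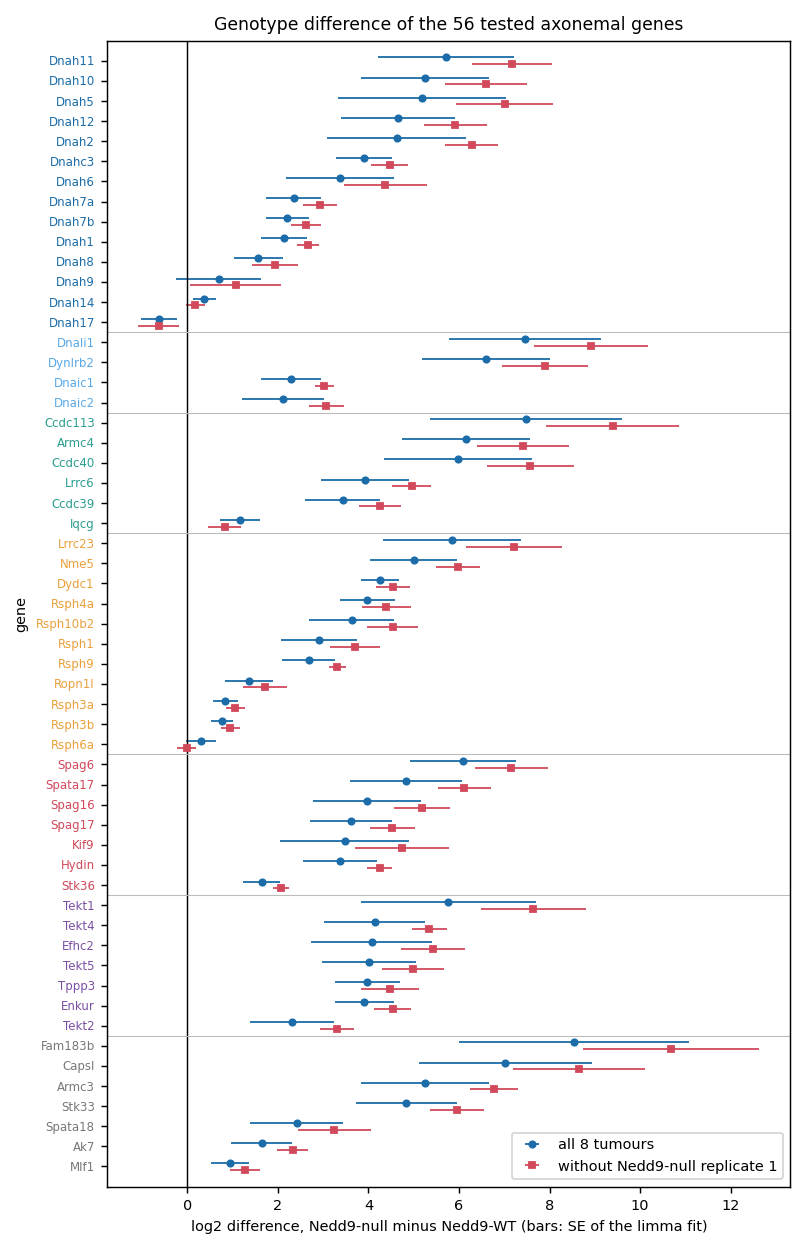
Points give the log2 difference, Nedd9-null minus Nedd9-WT, of each of the 56 tested axonemal genes with bars of 1 SE of the limma fit, over all 8 tumours (circles) and without Nedd9-null replicate 1 (squares). Nearly all points lie to the right of 0 in both fits, and the bars of most genes are shorter without that tumour.

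Dynein heavy chains are the motor subunits of the outer and inner arms, and 14 were tested. Their median difference was 2.86, 13 of 14 were above 0, 11 had an unadjusted p under 0.05, and 5 had separate genotypes. For this and the following roles, the shares of all genes tested were 52.2% above 0 and 11.6% above 1. They were 13.1% higher at an unadjusted p under 0.05, 7.17% separate and higher, and 10.3% past the threshold and higher without Nedd9-null replicate 1. With all tumours none passed the threshold, and 11 did without Nedd9-null replicate 1. Dnah7b, an inner arm heavy chain gene, stood at -0.83, -1.27, -1.65 and -0.29 in Nedd9-WT and at -0.06, 1.30, 1.72 and 1.82 in Nedd9-null tumours, differing by 2.21 (SE 0.47, adjusted p = 0.0835). Its genotypes did not overlap, although Nedd9-null replicate 1 was only just above Nedd9-WT replicate 4. Dnah2, of an inner arm, was -3.07, -5.47, -5.32 and -4.52 in Nedd9-WT and -4.95, 1.43, 1.54 and 2.09 in Nedd9-null tumours, differing by 4.62 (SE 1.54, adjusted p = 0.135). Here Nedd9-null replicate 1 lay inside the Nedd9-WT range and the other 3 far above it. Dnah6, another inner arm gene, gave -3.00, -4.52, -3.97 and -3.73 in Nedd9-WT and -3.44, -1.84, 1.92 and 1.61 in Nedd9-null tumours, differing by 3.37 (SE 1.19, adjusted p = 0.149). Its replicate 2 was between the Nedd9-WT tumours and Nedd9-null replicates 3 and 4. Dnah8, an outer arm gene best known from sperm, was -3.43, -3.61, -3.34 and -3.23 in Nedd9-WT and -2.93, -2.22, -0.12 and -2.07 in Nedd9-null tumours, differing by 1.57 (SE 0.55, adjusted p = 0.144). All Nedd9-null values were above the Nedd9-WT values, and replicate 3 alone was near 0.

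The outer arm genes of airway and oviduct cilia, Dnah5 and Dnah11, are named here with other heavy chains after their values had been seen. Dnah5 was -4.49, -9.26, -8.47 and -7.94 in Nedd9-WT and -7.85, -0.77, -0.69 and -0.13 in Nedd9-null tumours, and it was above background on 1 Nedd9-WT array and 3 Nedd9-null arrays. Dnah11 was -3.66, -7.06, -7.41 and -6.92 in Nedd9-WT and -4.93, 0.56, 1.14 and 1.03 in Nedd9-null tumours. In both genes Nedd9-WT replicate 1 was brighter than Nedd9-null replicate 1. Dnah9, a further outer arm gene, was -7.41, -3.75, -7.85 and -7.80 in Nedd9-WT and -7.11, -5.90, -5.77 and -5.24 in Nedd9-null tumours, so that Nedd9-WT replicate 2 was the highest of the 8. Dnah17, known from the sperm tail, was the only tested member with a difference below 0 (-0.62, SE 0.40, adjusted p = 0.385), at -4.50, -4.26, -2.73 and -3.16 in Nedd9-WT and -4.25, -4.50, -4.18 and -4.19 in Nedd9-null tumours. Dnah14 differed by 0.38 (SE 0.26, adjusted p = 0.413). Dnah7a is nearly identical to Dnah7b, so signal may be shared between their probes, and its 3 probes gave differences of 0.13 to 2.97, the largest gap among the 19 members with more than 1 kept probe, of which 0 differed in sign.

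Intermediate and light chains anchor and regulate the arms, and all 4 genes tested had an unadjusted p under 0.05, with a median difference of 4.44. Dynlrb2, a roadblock-type light chain gene on mouse chromosome 8 (its probe lies at 119039711 to 119039770, plus strand, mm9), stood at -0.74, -3.97, -5.05 and -3.78 in Nedd9-WT and at -0.69, 3.97, 4.68 and 4.88 in Nedd9-null tumours. Its difference was 6.59 (SE 1.41, 96.6-fold, adjusted p = 0.0835). The genotypes did not overlap, but Nedd9-null replicate 1 and Nedd9-WT replicate 1 were almost level. Dnali1, an inner arm light chain gene, was -2.21, -7.24, -6.90 and -7.39 in Nedd9-WT and -2.83, 2.58, 3.24 and 3.11 in Nedd9-null tumours (difference 7.46, SE 1.68, adjusted p = 0.0869), and it was above background on 3 of 4 Nedd9-WT arrays. Again replicate 1 of both genotypes stood between the rest, in overlap. The outer arm intermediate chain genes differed less. Dnaic1 was -2.56, -3.16, -2.64 and -2.79 in Nedd9-WT and -2.70, -0.05, 0.30 and 0.47 in Nedd9-null tumours (difference 2.29, SE 0.67, adjusted p = 0.112). Dnaic2 was -1.85, -1.87, -1.08 and -2.56 in Nedd9-WT and -2.61, 0.67, 1.37 and 1.67 in Nedd9-null tumours (difference 2.11, SE 0.91, adjusted p = 0.208). In Dnaic2, Nedd9-null replicate 1 was the lowest of all 8 tumours. None of the 4 passed with all tumours, and all 4 rose past the threshold without that replicate.

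Docking, ruler and assembly proteins place the arms and spokes along the doublets, and the median difference of the 6 genes was 4.95, all with an unadjusted p under 0.05. Ccdc40, which with Ccdc39 forms the ruler that sets the axonemal repeat, was -2.60, -6.61, -6.43 and -5.36 in Nedd9-WT and -4.08, 1.82, 2.59 and 2.58 in Nedd9-null tumours (difference 5.98, SE 1.63, adjusted p = 0.105). Armc4, of the outer arm docking complex, was -2.46, -5.64, -7.18 and -5.52 in Nedd9-WT and -2.83, 1.78, 2.56 and 2.29 in Nedd9-null tumours (difference 6.15, SE 1.41, adjusted p = 0.0882). Both genes were highest by far in Nedd9-null replicates 2 to 4 and overlapped through the replicate 1 tumours. Ccdc113, a gene of the axoneme's linker and ciliary base, was -2.44, -9.19, -7.49 and -7.36 in Nedd9-WT and -4.92, 2.19, 2.96 and 3.17 in Nedd9-null tumours (difference 7.47, SE 2.12, adjusted p = 0.109). It was above background on 2 of 4 Nedd9-WT arrays. Iqcg, of the nexin-dynein regulatory complex, had another order of tumours: it was -1.72, -2.92, -2.98 and -2.41 in Nedd9-WT and -0.30, -1.49, -1.36 and -2.20 in Nedd9-null tumours, highest in Nedd9-null replicate 1 (difference 1.17, SE 0.44, adjusted p = 0.168). It was the 1 gene of this role that did not pass without that tumour.

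Radial spokes reach from the doublets to the central pair, and of 11 genes tested 10 had an unadjusted p under 0.05 and all were above 0, with a median of 2.91. Dydc1, which encodes a protein with a DPY30 domain of the kind found in spoke proteins (probe on chromosome 14, 41905295 to 41905354, plus strand, mm9), was the only axonemal gene that rose past the threshold with all 8 tumours. It was -9.05, -9.24, -9.69 and -10.12 in Nedd9-WT and -6.15, -5.68, -4.83 and -4.45 in Nedd9-null tumours (difference 4.25, SE 0.42, adjusted p = 0.0281 in limma). The Nedd9-WT values were not well above background on any array, so the fold is a bound: the Nedd9-null level of Dydc1 was at least 4.64-fold higher, taking for each Nedd9-WT array the larger of the probe's value and the dimmest value that was well above background. Nedd9-null replicate 1 was again the lowest of its genotype but was far above the Nedd9-WT range. The adjusted p is limited in the same way as the fold, since it rests on the spread of Nedd9-WT signals near background. The call was lost in 11 of 16 alternatives, with limma adjusted p-values of 0.000538 to 0.217 over all 16. The bound holds for the processed signal: the difference was 1.09 after another background correction (normexp) and 1.31 in the deposited value table.

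Among the other spoke genes, Rsph3b, a spoke stalk gene, was 3.11, 3.00, 3.36 and 2.78 in Nedd9-WT and 3.27, 3.72, 4.18 and 4.14 in Nedd9-null tumours (difference 0.77, SE 0.25, adjusted p = 0.129). Rsph3a, its near-identical copy, differed by 0.84 (SE 0.27), and the probes of this pair may share signal. Rsph9, a spoke head gene, was 0.58, 0.32, 0.29 and 0.76 in Nedd9-WT and 1.27, 3.61, 4.00 and 3.78 in Nedd9-null tumours (difference 2.68, SE 0.58, adjusted p = 0.0835), with all Nedd9-null tumours above all Nedd9-WT tumours. Rsph1, also of the spoke head, was -0.45, -1.12, 0.70 and -1.59 in Nedd9-WT and -0.09, 2.51, 3.37 and 3.38 in Nedd9-null tumours (difference 2.91, SE 0.85, adjusted p = 0.112). Its Nedd9-WT replicate 3 exceeded Nedd9-null replicate 1. Nme5, a nucleoside diphosphate kinase family gene of the spoke, was -0.41, -2.46, -2.13 and -1.99 in Nedd9-WT and 0.32, 3.95, 4.48 and 4.25 in Nedd9-null tumours (difference 4.997, SE 0.96, adjusted p = 0.0757), without overlap. Rsph4a and Rsph6a, close relatives of the spoke head, are compared after their values had been seen. Rsph4a, used in motile cilia, was -2.41, -3.86, -4.84 and -3.16 in Nedd9-WT and -0.88, 0.54, 0.93 and 1.02 in Nedd9-null tumours, and differed by 3.97 (SE 0.61, adjusted p = 0.0596). Rsph6a, known from sperm, was -7.02, -7.27, -7.14 and -7.06 in Nedd9-WT and -5.91, -7.45, -6.70 and -7.25 in Nedd9-null tumours, and differed by 0.30 (SE 0.33, adjusted p = 0.626). Nedd9-null replicates 2 to 4 were thus above the Nedd9-WT range in Rsph4a and around it in Rsph6a.

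The central pair apparatus was represented by 7 genes, all with an unadjusted p under 0.05 and a difference above 1 (median 3.61), 4 of them with separate genotypes. Spag6 (Spag6l in RefSeq) encodes an armadillo repeat protein of the central apparatus. It was -3.09, -6.35, -6.45 and -5.77 in Nedd9-WT and -2.51, 1.39, 1.83 and 1.99 in Nedd9-null tumours (difference 6.09, SE 1.17, 68.2-fold, adjusted p = 0.0757). Hydin, a very large central pair protein gene, was -4.43, -5.10, -4.74 and -4.97 in Nedd9-WT and -4.08, -0.90, -0.75 and -0.01 in Nedd9-null tumours (difference 3.37, SE 0.81, adjusted p = 0.0922). Both were separate between genotypes, with Nedd9-null replicate 1 just above the Nedd9-WT tumours. Stk36, the fused kinase gene, was -2.46, -2.75, -2.40 and -2.48 in Nedd9-WT and -2.16, -0.67, -0.51 and -0.17 in Nedd9-null tumours (difference 1.65, SE 0.41, adjusted p = 0.0950). Its Nedd9-WT values were close to each other, with an SD of 0.16. Kif9, a kinesin gene of the central pair, was -1.63, -6.03, -5.39 and -5.56 in Nedd9-WT and -4.95, -0.29, 0.23 and 0.32 in Nedd9-null tumours (difference 3.48, SE 1.43, adjusted p = 0.191). Nedd9-WT replicate 1 was well above Nedd9-null replicate 1 on this probe of the gene. The 4 kept probes of Kif9 gave differences of 3.48 to 4.38, and the brightest, used here, had the smallest difference and the largest SE. Spag16 and Spag17, chosen after their values were seen as the other genes below background on every Nedd9-WT array, had Nedd9-null levels at least 4.55-fold and at least 6.06-fold higher on the processed signal, and each was above background on 3 of 4 Nedd9-null arrays. All 7 genes rose past the threshold without Nedd9-null replicate 1.

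Tektins and other microtubule proteins lie in or on the doublets. The median difference of the 7 tested genes was 4.01, and Tekt3 did not pass the filter, being above background on 1 array of each genotype. Tppp3, a tubulin polymerisation-promoting protein gene, was 0.06, 0.73, -2.16 and -0.48 in Nedd9-WT and 2.01, 3.70, 4.23 and 4.13 in Nedd9-null tumours (difference 3.98, SE 0.71, adjusted p = 0.0686). Enkur, which encodes a doublet protein, was -1.94, -3.17, -3.10 and -1.82 in Nedd9-WT and -0.47, 1.64, 2.09 and 2.36 in Nedd9-null tumours (difference 3.91, SE 0.66, adjusted p = 0.0657). In both, all 4 Nedd9-null tumours were above all Nedd9-WT tumours. Tekt1 was -0.70, -6.08, -2.79 and -4.31 in Nedd9-WT and -3.35, 3.65, 4.45 and 4.43 in Nedd9-null tumours (difference 5.76, SE 1.94, adjusted p = 0.137). Tekt4 was -2.51, -3.81, -3.53 and -3.25 in Nedd9-WT and -2.76, 1.46, 2.40 and 2.37 in Nedd9-null tumours (difference 4.14, SE 1.11, adjusted p = 0.103). Both tektins overlapped through Nedd9-null replicate 1, and all 7 tested genes of this role passed without it.

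The last 7 genes are cilia genes of other or less settled place, with a median difference of 4.84. Fam183b, a small ciliary gene, had a fitted difference of 8.54 (SE 2.54, adjusted p = 0.115), which was 6.56 to 10.68 over the alternatives. It was -0.75, -9.41, -6.16 and -8.50 in Nedd9-WT and -4.11, 3.98, 4.81 and 4.64 in Nedd9-null tumours, and since it was above background on 2 of 4 Nedd9-WT arrays no fold is given. Its Nedd9-WT replicate 1 lay between the low Nedd9-WT tumours and Nedd9-null replicates 2 to 4. Stk33, a serine/threonine kinase gene, was -3.24, -5.06, -5.72 and -3.98 in Nedd9-WT and -3.02, 0.92, 1.77 and 1.68 in Nedd9-null tumours (difference 4.84, SE 1.11, adjusted p = 0.0882). Ak7, an adenylate kinase gene of cilia, was -3.46, -3.25, -2.29 and -3.49 in Nedd9-WT and -3.53, -1.16, -0.62 and -0.60 in Nedd9-null tumours (difference 1.64, SE 0.67, adjusted p = 0.189). Stk33 was separate between the genotypes and Ak7 was not. Mlf1, which is also expressed outside ciliated cells, was 2.67, 1.75, 1.57 and 1.67 in Nedd9-WT and 1.87, 2.74, 3.41 and 3.42 in Nedd9-null tumours (difference 0.94, SE 0.41, adjusted p = 0.210).

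Other lists were compared with the axonemal genes in the same fit, and none of their genes passed the threshold with all 8 tumours. At an unadjusted p under 0.05, 13.1% of all genes tested were higher and 10.8% lower, and the counts of each list are to be read beside these shares. Outside the group, a further 44 axonemal genes had a median difference of 3.57, and 37 were higher and 0 lower at an unadjusted p under 0.05. The brightest of these 44 were Cfap74 (difference -0.27), Cfap298 (2.19) and Mns1 (0.71), and all 3 overlapped between the genotypes. The cytoplasmic dynein and light chain paralogues were compared as a contrast: 16 genes had a median of -0.05, with 3 higher and 2 lower at an unadjusted p under 0.05. The 3 higher genes, named after their values were seen, were Dync2h1 (difference 1.53), Tctex1d2 (1.23) and Dync2li1 (1.08), which belong to dynein-2, the motor of intraflagellar transport inside cilia. Most of the list serves the cargo dynein of all cells. The 2 lower genes, named in the same way, were Dync1i1 (-3.34, the largest change of the list) and Dync1li2 (-0.69). In both, every Nedd9-null tumour lay below every Nedd9-WT tumour. Dynlrb1, the paralogue of Dynlrb2, was 4.02, 4.60, 4.38 and 4.32 in Nedd9-WT and 4.20, 3.93, 4.02 and 3.92 in Nedd9-null tumours (difference -0.31, SE 0.17, adjusted p = 0.303). Dctn1, the large dynactin subunit gene, differed by -0.18 and Dync1i2, a cytoplasmic intermediate chain gene, by -0.03, a sign that turned in 3 alternatives. The dynein assembly factors, which fold the arms in the cytoplasm, had a median difference of 1.57 (11 of 15 genes higher at an unadjusted p under 0.05). This list is not separate from the others: it holds Lrrc6, itself one of the axonemal genes above, and shares Cfap298 and Ccdc103 with the 44 further axonemal genes. Among its genes, Cfap298 differed by 2.19 and the general chaperone genes Ruvbl1 and Ruvbl2 by 0.58 and 0.83. Intraflagellar transport genes, which serve motile and primary cilia alike, had a median of 0.76 (15 of 24), with Ift46 at 0.76, Ift43 at 0.77 and Ift27 at 0.57. Primary cilium and BBSome genes had a median of 0.55 (14 of 28), with Pkd1 at 0.01, Tctn2 at 1.55 and Cc2d2a at 0.43.

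Regulators of ciliogenesis had a median difference of 1.65, and 12 of 16 genes were higher at an unadjusted p under 0.05, against 13.1% of all genes tested. Deup1, of the deuterosome that multiplies centrioles, was -0.77, -0.70, -2.22 and -0.62 in Nedd9-WT and 0.14, 2.37, 3.04 and 3.39 in Nedd9-null tumours (difference 3.32, SE 0.73, adjusted p = 0.0836), without overlap. Mcidas, a geminin-family activator of multiciliated cells, had another order of tumours: it was 4.21, 3.74, 2.85 and 4.30 in Nedd9-WT and 5.83, 4.46, 4.30 and 2.73 in Nedd9-null tumours (difference 0.55, SE 0.64, adjusted p = 0.638). It was highest in Nedd9-null replicate 1, where the axonemal genes were low. Rfx1, a widely expressed RFX factor gene, differed by 0.40 (SE 0.15, adjusted p = 0.163). Foxj1, Rfx2 and Rfx3 were not given by the rule for named genes and are added after their values were seen, since the background names these factors. Foxj1 was -1.39, -3.18, -6.09 and -3.82 in Nedd9-WT and 1.14, 3.16, 3.69 and 3.84 in Nedd9-null tumours (SE 1.02 for a difference of 6.58, adjusted p = 0.0596), with every Nedd9-null tumour, replicate 1 included, above every Nedd9-WT tumour. Rfx2 differed by 1.504 (SE 0.60, adjusted p = 0.183) and Rfx3 by 1.15 (SE 0.36, adjusted p = 0.124), and both overlapped between the genotypes.

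Some markers of other cells had the tumour order of the axonemal genes or its reverse, and others did not. At an unadjusted p under 0.05, 13.1% of all genes tested were higher and 10.8% lower. Of 14 tested genes of oviduct secretory cells, which neighbour ciliated cells in the oviduct, 4 were higher and 1 lower at that level (median 0.52). Their summed signal, in units of the array's 75th percentile, was 66.3 to 196 in Nedd9-null and 40.6 to 51.4 in Nedd9-WT tumours. The lowest Nedd9-null sum, that of replicate 1, rests largely on Wt1, the brightest gene of the list. Wt1 stood at 5.78 there and at 4.85 to 5.43 in Nedd9-WT tumours. The sums of Nedd9-null replicates 2 to 4 rest largely on Ovgp1. By the list's median gene, scored against Nedd9-WT, Nedd9-null replicate 1 (-0.18) lay within the Nedd9-WT tumours (-0.32 to 0.33). Replicates 2 to 4 lay above them, at 1.54, 1.41 and 0.52. Ovgp1, oviductal glycoprotein, was -0.21, -4.11, -2.74 and -2.61 in Nedd9-WT and -2.82, 6.38, 7.01 and 6.53 in Nedd9-null tumours (difference 6.69, SE 2.19, adjusted p = 0.132), high in the same 3 tumours as the axonemal genes. Of 17 genes of granulosa, theca and Sertoli cells, 12 were lower and 0 higher, with a median of -2.38 and a summed signal of 54.0 to 310 in Nedd9-null and 244 to 347 in Nedd9-WT tumours. Amhr2, whose promoter drives the transgene, was 6.24, 7.004, 7.04 and 6.11 in Nedd9-WT and 6.46, 2.18, 0.29 and 1.64 in Nedd9-null tumours (difference -3.95, SE 1.19, adjusted p = 0.116), so it was low where the axonemal genes were high. The granulosa and Sertoli genes Amh and Fshr, named after their values were seen, stood above background in all 4 Nedd9-WT tumours and in 1 Nedd9-null tumour each. Of the brightest genes of this list, Clu differed by -0.82 (SE 0.51) and Foxl2 by 0.25 (SE 0.18), and both overlapped between the genotypes. Foxl2, the 1 gene of the list above 0, was 3.78, 3.38, 3.68 and 3.79 in Nedd9-WT and 4.10, 3.61, 3.98 and 3.94 in Nedd9-null tumours. Of 10 genes of mesothelium and ovarian surface, 0 were higher and 3 lower (median -0.08), with sums of 58.4 to 96.4 and 42.1 to 67.5. Krt8 was 2.45, 2.31, 3.45 and 1.95 in Nedd9-WT and 0.39, 4.83, 4.83 and 3.88 in Nedd9-null tumours (difference 0.94, SE 0.97). Krt19 was 0.11, 1.38, 0.42 and -0.69 in Nedd9-WT and -0.93, 3.33, 4.08 and 2.52 in Nedd9-null tumours (difference 1.95, SE 1.04). In both, Nedd9-null replicates 2 to 4 lay above every Nedd9-WT tumour. The 3 lower genes, named after their values were seen, were Gpm6a (-2.70), Nkain4 (-1.87) and Upk1b (-1.87). In Nkain4 every Nedd9-null tumour lay below every Nedd9-WT tumour. Without Nedd9-null replicate 1, 2 genes of this list rose past the threshold and 1 fell (all genes 10.3% and 8.37%). Wt1, which marks several of these cells, differed by 0.14 (-0.05 with the median as the scale). Folr1, an epithelial folate receptor gene of the oviduct list, differed by 0.38. Whether these cell types have a part in the axonemal result was not tested.

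Sperm genes were listed because spermatids use the same axoneme. Of 21 on the array, 14 were tested, with a median of 0.26 and differences from -3.24 to 5.13. At an unadjusted p under 0.05, 2 were higher and 0 lower, against 13.1% and 10.8% of all genes tested. Prm3, Odf1, Akap3, Tssk2, Izumo1, Zpbp and Catsper1 did not pass the filter. Between 11 and 16 of the 21 were well above background in any tumour, and their summed signal was 1.91 to 5.15 in Nedd9-null and 1.10 to 2.13 in Nedd9-WT tumours. Tcp11, known from spermatids, was -3.39, -6.02, -5.86 and -5.45 in Nedd9-WT and -4.70, 1.29, 1.47 and 1.71 in Nedd9-null tumours (difference 5.13, SE 1.46, adjusted p = 0.109), in the order of the axonemal genes. The sums of Nedd9-null replicates 2 to 4 rest largely on this gene. The list's median difference from the Nedd9-WT mean was 0.53, 0.26, 0.19 and 0.06 in Nedd9-null and -0.08, -0.42, 0.04 and 0.29 in Nedd9-WT tumours. The acrosin gene Acr differed by 0.36 and Odf2, of outer dense fibres and centrioles, by 0.65.

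**Figure D4:**
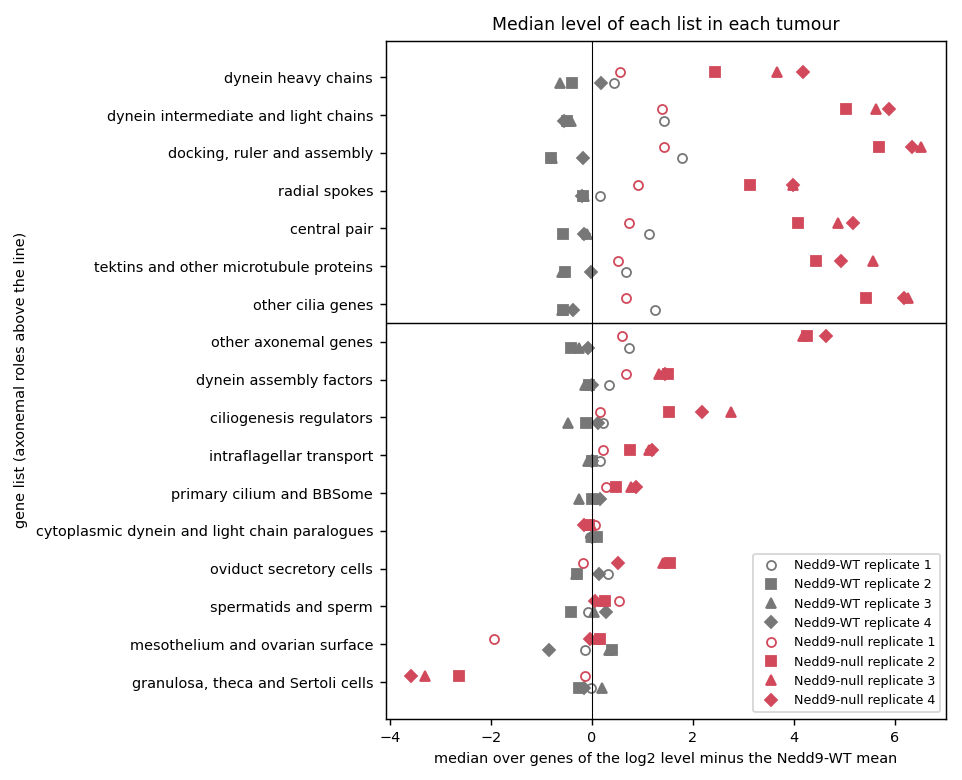
Points give, for each list and tumour, the median over genes of the log2 level minus the Nedd9-WT mean, with axonemal roles above the line and comparison lists below it; grey marks are Nedd9-WT, red marks Nedd9-null, and shapes the replicates. Nedd9-null replicates 2 to 4 are far to the right in every axonemal role and to the left in the granulosa, theca and Sertoli list, while the cytoplasmic dynein list keeps all 8 tumours near 0.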

How the data were processed

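RNA of 8 tumours, 500 ng each per the labels, was labelled with Cy3 and hybridised to 1 array each. The deposited scanner files hold intensity values made with Agilent Feature Extraction 9.5.3, per the submitters' processing notes; per the file headers the processed signal was background-subtracted and detrended within an array, and the probes are placed on mm9. The deposited value table holds the authors' log2 values, which track each array's median spot signal (r of 0.999 or above), have a median of 8.24 in every column and were used as an alternative; its background step is not given in the sources used here.

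Of 44397 spots per array, 1377 controls and outlier spots were left out, spots of a probe were averaged (39429 probes), and log2 of the processed signal minus the array's 75th percentile was used. Probes lacking a value on some array (27) were left out. The filter kept the 31784 probes that were well above background on 3 or more of the 4 arrays of either genotype, and a gene was read from its brightest probe by mean level. Names were updated through RefSeq (GRCm38.p6): accessions named 26055 probes, symbols 3195 and synonyms 930, while 9249 kept the file's name. The test was limma (version 3.58.1, under R 4.3.3) with lmFit and eBayes, 2-sided and without covariates, on files read by the data.table package (1.17.8), and the number of arrays limits the precision. Each array is 1 mouse per the labels. The highest correlation between arrays was 0.984, so none was taken for a copy. On 5 simulated data sets of this comparison with 25537 genes, the share of changed genes recovered was 16% for a change of 1 log2 unit, 60.4% for 2, 86.4% for 4 and 92.8% for 6. These shares need not hold for the axonemal genes: 44 of 56 had a difference above 2, and 1 passed the threshold with all 8 tumours. Over all genes tested, 1330 had a difference above 2 and 15 rose past the threshold.

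The genes of the group, the roles, the comparison lists and the tests were chosen with earlier results of these data known. Members are given in every tumour by rule: up to 4 with the highest mean per role, every one past the threshold and any tested one lower by over 1. From comparison lists the rule allows up to 3 with the highest mean and any past the threshold, and of these a part is printed. Members named outside the rule were chosen after their values had been seen. Alternatives were another background correction (normexp, offset 50), scale, normalization, filter, probe rule, value table, trend, replicate block and leaving out each tumour.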

Additional observations from a re-analysis of the deposited data

Results flagged for a closer look

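In groups of 4 tumours, 1 tumour lay apart from its genotype when its gap to the nearest other, as a share of the genotype's range, was above Dixon's critical value at the 95% level. About 1 in 20 groups does so by chance, and 21 of the 76 groups tested did. In 15 of the 21 the tumour was Nedd9-null replicate 1, on the low side. Its gap was 0.907 in Dnah2, 0.907 in Fam183b, 0.897 in Tekt1, 0.891 in Dnali1, 0.884 in Ccdc40, 0.883 in Kif9, 0.879 in Ccdc113, 0.872 in Nme5, 0.867 in Spag6, 0.857 in Rsph9, 0.856 in Armc4, 0.837 in Dynlrb2 and 0.835 in Dnaic1. It was also low in the median score of docking, ruler and assembly genes (0.835) and of the other cilia genes (0.849). Nedd9-WT replicate 1 lay apart on the high side in Dnali1 (0.904), Kif9 (0.855) and Mlf1 (0.843), and in the median scores of intermediate and light chains (0.925), radial spokes (0.887) and other cilia genes (0.880). The genes share their tumours, so these are not independent events.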

How the results depend on the processing

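The median difference of the axonemal genes kept its direction under every alternative, at 2.69 to 4.53 against 3.91. The count of these genes past the threshold, 1, was 0 with the normexp correction, with the median as the scale, with quantile normalization, with the value table and with the filter on all 8 arrays, which 36 of them passed, and it was 0 to 50 when 1 tumour was left out. It was 50 without Nedd9-null replicate 1, also with no filter, it stayed 1 when Nedd9-WT replicate 1 was dropped, and it was 0 for each of the other 6 tumours. Separate genotypes, 19, became 10 with the median as the scale and 12 in the value table, and 19 to 51 with 1 tumour left out: 51 without Nedd9-null replicate 1, with and without the filter, and 39 without Nedd9-WT replicate 1. Over all genes, 17 passed, against 4 with the median as the scale, 4 with quantile normalization, 7 with the filter on all 8 arrays, and 0 to 4777 with 1 tumour left out (4777 for Nedd9-null replicate 1, 42 for Nedd9-WT replicate 1, 2 for Nedd9-null replicate 4 and 0 for each other tumour). Dync1i2 reversed, to 0.029 with normexp and 0.020 in the value table, and was -0.073 to 0.023 with 1 tumour left out, above 0 for Nedd9-WT replicate 2, and Wt1 reversed to -0.047 with the median as the scale. The cause was not tested in any of these, beyond the fewer genes tested under the stricter filter and the fewer tumours.

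The replicate numbers did not pair the tumours, since same-numbered deviations correlated at -0.05, -0.23, -0.04 and -0.09. With the replicate block, 0 genes passed over all genes and 0 axonemal genes.

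Signals near background limit Dydc1, Spag16, Spag17 and the other genes that passed the filter in Nedd9-null tumours alone: in Dydc1 the difference was 1.09 with normexp, which is below the bound of at least 4.64-fold, so both the differences and the bounds depend on how background is treated.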

Other observations

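The listed gene Cdhr3, a cadherin-related gene known from ciliated airway cells, had a probe under an older clone name that maps to it in RefSeq, which the choice by name did not reach. Its levels were -6.81, -9.41, -9.62 and -10.17 in Nedd9-WT and -9.62, -1.41, -1.35 and -0.58 in Nedd9-null tumours (difference 5.76, SE 1.98, limma adjusted p = 0.142), with 1 Nedd9-WT and 3 Nedd9-null arrays above background. Nedd9-null replicates 2 to 4 were above the other 5 tumours, as in most axonemal genes.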
